A study of Mus musculus with 19 samples.

Results

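The genes described here run autophagy, its control by mTORC1 and the acidification of lysosomes by the V-ATPase. They are the RefSeq protein-coding genes whose symbols start with Atg and a digit or with Atp6v0 or Atp6v1, together with 27 named regulators, which gives 68 of 21887 protein-coding genes. Their binding by CBFA2T2, a transcriptional corepressor of the MTG (ETO) family, was read from chromatin immunoprecipitation with sequencing (ChIP-seq) in NE-4C, a mouse neural stem cell line without p53. The H3.3K27M cells had H3f3a, which codes for the histone variant H3.3, knocked out and carried a stable HA-tagged H3.3 with methionine in place of lysine 27. The H3.3WT cells were made from the same H3f3a knockout cells with a stable HA-tagged H3.3 of wild-type sequence. What drives the tagged histones and whether a line was 1 clone is not given in the sources used here. The series lists 19 libraries from these genotypes and from an H3.3WT Cbfa2t2 Knockout, 11 of ChIP and 8 of input. Values came from the CBFA2T2 ChIP of H3.3K27M cells, with 8272 peaks, and that of H3.3WT cells, with 6920 peaks. The remaining libraries, the CBFA2T2 ChIP of the knockout among them, were not analysed here. Each genotype had 1 library, so there was no replicate check, no difference between the genotypes was tested, and the sequencing depth is unknown. Neither list held a peak within 5 kb of H3f3a. Cbfa2t2 had 2 peaks within 5 kb in each list, the higher with a fold of 31.1 in H3.3K27M and 15.9 in H3.3WT. Peak lists hold no expression, so the labelled cell type was not checked by markers.

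In autophagy a double membrane grows around cytoplasm and is delivered to the lysosome. The ULK1 complex starts it, a lipid kinase complex marks the membrane with PI3P, and ubiquitin-like conjugation fixes ATG8 proteins to it, where cargo receptors and transport adaptors bind. The kinase complex mTORC1 holds the ULK1 complex back when nutrients are plentiful. It is switched on at the lysosome by Rag GTPases and Rheb, restrained by GATOR1 and the TSC complex, and sits there beside the V-ATPase, a proton pump with a cytosolic V1 part and a membrane V0 part. TFEB and TFE3 are transcription factors that mTORC1 keeps in the cytoplasm and that switch on lysosomal and autophagy genes. MTG proteins do not bind DNA by themselves but are brought to it by partner factors, E proteins among them. Peaks are described below by their fold enrichment, the ratio of ChIP signal over the local background as the authors' peak caller gave it. The caller's −log10 q, its adjusted evidence for a peak, is given with it for the highest peaks and for genes found in a single list.

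The promoters of 6 of these genes are printed first, each as 250 bases before to 50 bases after the start site that RefSeq gives on GRCm38.p6, 5′ to 3′ along the gene. They were picked with the peak values known, for the highest peak of both lists (Fyco1), for high peaks whose folds stood far apart between the lists (Atg4b, Pik3r4), for the transcription factor gene of the pathway (Tfeb), and for a gene marked in H3.3K27M alone (Wipi2) and one marked in H3.3WT alone (Tsc1). Fyco1 lies at chr9:123851850-123852149 on the minus strand, Atg4b at chr1:93754655-93754954, Tfeb at chr17:47736787-47737086, Pik3r4 at chr9:105642745-105643044, Wipi2 at chr5:142629334-142629633 and Tsc1 at chr2:28640983-28641282, these 5 on the plus strand. Capitals mark matches, on either strand, to the 13 motifs that are spelled out with the motif results.
Fyco1: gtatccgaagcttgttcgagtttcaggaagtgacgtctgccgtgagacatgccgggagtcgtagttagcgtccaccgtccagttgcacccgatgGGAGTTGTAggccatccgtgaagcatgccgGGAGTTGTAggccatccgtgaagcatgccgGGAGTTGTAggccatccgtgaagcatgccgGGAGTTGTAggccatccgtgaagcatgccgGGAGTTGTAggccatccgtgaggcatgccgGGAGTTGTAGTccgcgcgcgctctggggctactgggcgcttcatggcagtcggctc
Atg4b: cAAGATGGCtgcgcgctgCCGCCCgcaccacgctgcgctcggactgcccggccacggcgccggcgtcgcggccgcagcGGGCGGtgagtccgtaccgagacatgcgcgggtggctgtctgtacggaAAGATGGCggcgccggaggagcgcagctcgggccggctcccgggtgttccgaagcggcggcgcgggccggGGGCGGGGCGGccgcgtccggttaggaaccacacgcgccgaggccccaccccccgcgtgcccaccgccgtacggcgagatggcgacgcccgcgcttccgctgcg
Tfeb: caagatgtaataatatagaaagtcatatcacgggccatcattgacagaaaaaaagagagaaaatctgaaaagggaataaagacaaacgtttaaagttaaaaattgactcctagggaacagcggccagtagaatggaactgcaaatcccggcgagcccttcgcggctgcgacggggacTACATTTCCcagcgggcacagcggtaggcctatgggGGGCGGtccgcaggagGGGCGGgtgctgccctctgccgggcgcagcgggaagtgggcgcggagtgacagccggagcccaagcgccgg
Pik3r4: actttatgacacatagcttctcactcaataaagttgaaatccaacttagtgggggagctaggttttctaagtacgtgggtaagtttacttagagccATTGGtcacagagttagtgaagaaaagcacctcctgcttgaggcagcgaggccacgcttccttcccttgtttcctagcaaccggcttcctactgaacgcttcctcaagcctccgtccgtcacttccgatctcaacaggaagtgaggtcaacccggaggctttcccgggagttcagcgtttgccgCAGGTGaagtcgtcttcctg
Wipi2: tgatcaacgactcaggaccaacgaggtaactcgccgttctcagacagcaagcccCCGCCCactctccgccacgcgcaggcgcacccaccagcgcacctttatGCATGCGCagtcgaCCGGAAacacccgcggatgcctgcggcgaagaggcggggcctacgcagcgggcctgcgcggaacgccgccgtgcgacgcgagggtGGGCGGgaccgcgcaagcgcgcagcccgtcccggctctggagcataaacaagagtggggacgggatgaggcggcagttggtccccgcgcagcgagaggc
Tsc1: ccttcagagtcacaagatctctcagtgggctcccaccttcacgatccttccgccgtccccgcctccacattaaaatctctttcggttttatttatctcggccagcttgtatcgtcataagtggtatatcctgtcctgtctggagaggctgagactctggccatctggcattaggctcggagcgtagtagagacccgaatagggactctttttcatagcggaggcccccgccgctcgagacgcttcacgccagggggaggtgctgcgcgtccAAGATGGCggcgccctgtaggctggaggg
In the Fyco1 window the summits lay at base 145 in H3.3K27M and base 118 in H3.3WT, inside the run of capitals. The Tfeb summit fell on base 178 in H3.3K27M, the first base of the capitals TACATTTCC, and on base 156 in H3.3WT. Atg4b, the window richest in CpG of the 6 with 55, had its summits at base 287 in H3.3K27M and base 310 in H3.3WT, the second just beyond the window. Pik3r4 had 13 CpG and summits at bases 298 and 251 in H3.3K27M and H3.3WT. The single Wipi2 summit of H3.3K27M was at base 210, and the single Tsc1 summit of H3.3WT at base 198.

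CBFA2T2 peaks stood at the ends of most of these genes in both genotypes. A gene was called marked if the summit of a peak lay within 1 kb of either annotated end of it. Where it had several such peaks, the one of highest −log10 q stood for it. In H3.3K27M 46 of the 68 genes were marked (67.6%), against 28.6% of all protein-coding genes under the same rule. In H3.3WT 41 were marked (60.3%), against 24.8% of all genes. Both lists marked 39 of the genes (57.4%, all genes 22.2%). H3.3K27M alone marked 7 (10.3%, all genes 6.39%) and H3.3WT alone 2 (2.94%, all genes 2.60%). Since the set was chosen with earlier results of these data known, its comparison with all genes, here and below, is limited. The background holds many receptor and predicted genes. Without olfactory and vomeronasal receptor genes and symbols of the Gm and Rik type, a comparison chosen after the data were seen, 32.6% of the remaining 18672 genes were marked in H3.3K27M and 28.3% in H3.3WT. No peak served 2 genes of the set, which had 48 separate boundary peaks in H3.3K27M and 43 in H3.3WT.

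**Figure D1:**
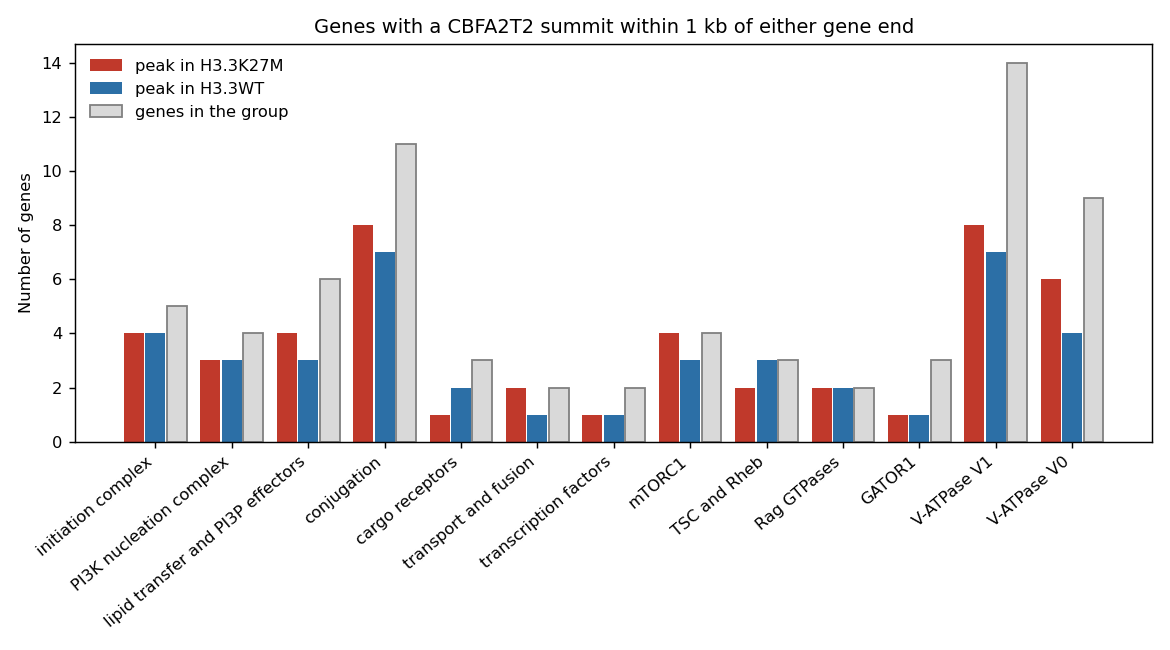
Number of genes (vertical axis) with a CBFA2T2 summit within 1 kb of a gene end, by role group, in the H3.3K27M list (red) and the H3.3WT list (blue), beside the number of genes in the group (grey), 1 library per genotype. The groups of mTORC1, TSC and Rheb, Rag GTPases, and transport and fusion had every gene marked in at least 1 list. Of the 14 genes with V1 symbols 6 were marked in neither, among them Atp6v1fnb, which is no subunit.

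The marked genes were spread over the pathway. Of 31 autophagy genes 22 were marked in H3.3K27M and 20 in H3.3WT, with 19 in both. Of 12 genes of mTORC1 and the TSC, Rag and GATOR1 groups 9 were marked in each list, 8 of them in both. Of 23 genes with V-ATPase symbols 14 were marked in H3.3K27M and 11 in H3.3WT. Overlap between the lists was read as a share of each. The 39 genes in both were 84.8% of those marked in H3.3K27M and 95.1% of those marked in H3.3WT, where over all genes these shares were 77.6% and 89.5%.

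Peak heights differed widely and reached the top of both lists. The marked genes of the set had a median fold of 7.27 in H3.3K27M, from 3.18 to 85.5, and of 8.40 in H3.3WT, from 3.86 to 108. All marked genes had medians of 6.29 in H3.3K27M and 6.91 in H3.3WT. A fold of at least 10 was reached by 16 genes of the set in H3.3K27M (34.8% of those marked, against 23.2% of all marked genes) and by 16 in H3.3WT (39.0% against 28.3%). Within the H3.3K27M list 20 of the marked genes (43.5%) had a peak among the upper 25% by fold, and within the H3.3WT list 16 (39.0%). Over all marked genes that share was 32.7% in either list. Of the 39 genes in both lists the fold was the higher one in H3.3K27M at 18 (46.2%), close to the 46.6% of all 4857 genes in both. Since folds depend on depth and on the yield of each precipitation, they are set side by side and are not changes between genotypes.

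**Figure D2:**
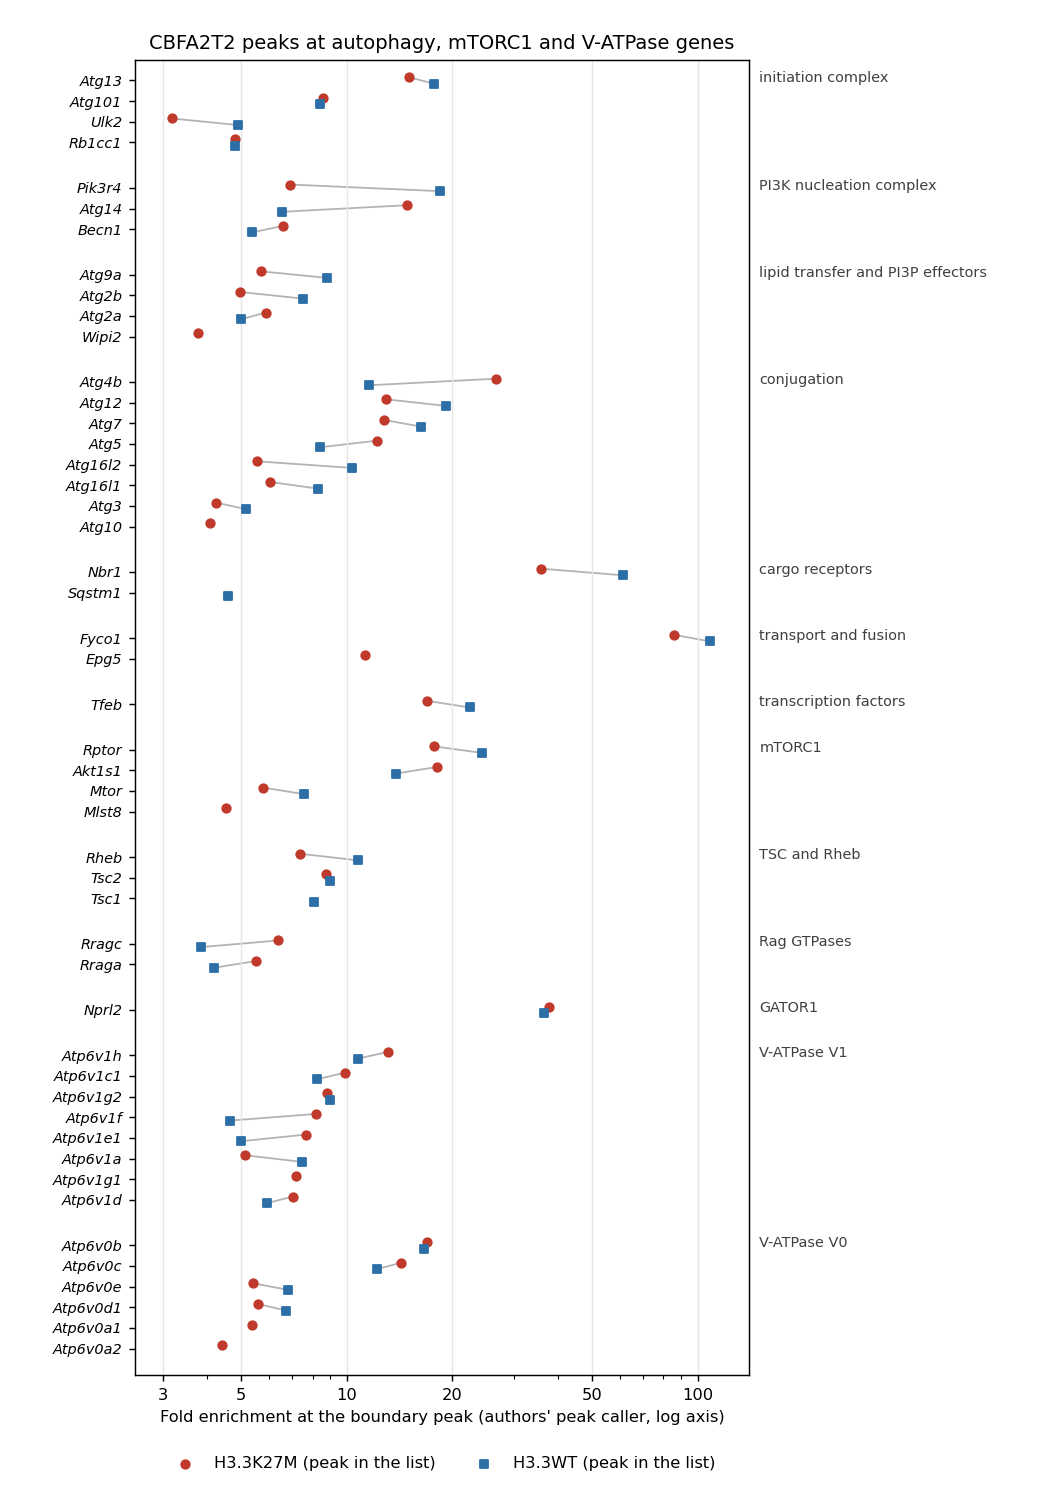
Fold enrichment of the boundary peak (horizontal log axis) at every marked gene, grouped by role, in H3.3K27M (red circles) and H3.3WT (blue squares), 1 library each, with a line joining the values of 1 gene (peaks at opposite ends for Mtor). Fyco1 stands at the far right with 85.5 and 108, and genes with a single symbol had a peak in 1 list.

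The highest peak in either list stood at Fyco1 (chromosome 9, 123789500 to 123851899), whose product links autophagosomes to kinesin for transport along microtubules. Its fold was 85.5 in H3.3K27M, with a −log10 q of 857, and 108 in H3.3WT, with a −log10 q of 795. It ranked first of all peaks by fold in both lists. The summits lay 106 bp upstream of the start site in H3.3K27M and 133 bp upstream in H3.3WT, and the same peak fell within 1 kb of the end of Xcr1, a chemokine receptor gene. Read in the promoter sequence, this place held a tandem repeat. The 30-base unit ggagttgtaggccatccgtgaagcatgccg stood 4 times in a row without a difference from base 95 of the window. The capitals GGAGTTGTA began at bases 95, 125, 155, 185, 215 and 245, each 30 bases from the next, and both summits lay within that span.

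The repeated capitals match the open core TACANNTCC read on the opposite strand, a search added after the Fyco1 promoter had been read. Of 15752 promoter windows with a usable start site, Fyco1 was the one with the most copies, 6, and no other window held more than 3. The 7 windows with at least 3 copies all belonged to genes marked in both lists. Besides Fyco1 they were 9430015G10Rik with folds of 49.05 in H3.3K27M and 70.2 in H3.3WT, Dffa with 43.1 and 47.4, Mrpl34 with 24.0 and 21.0, Zfp112 with 16.7 and 30.4, Zfp108 with 15.1 and 20.9, and Micos13 with 11.1 and 11.4. Of the 102 windows with at least 2 copies 94 belonged to genes marked in either list, as did 5406 of all 15752 windows. At least 1 copy was in 543 of those 5406 windows and in 280 of the 10346 windows of unmarked genes. Among genes of the set the core was also present once at Tfeb and once at Tsc2. Over all genes in both lists the median fold was 11.3 in H3.3K27M and 11.8 in H3.3WT for the 495 with the core, and 6.87 and 7.05 for the 3384 without it. Fyco1 itself is among the 495. The part of the repeat in the Fyco1 fold was not tested, since neither alignments nor input coverage were used here.

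Among the cargo receptor genes, Nbr1 (chromosome 11, 101552107 to 101581951) carried the second highest peak of the set in H3.3WT. NBR1 binds ubiquitinated cargo and ATG8 proteins. Its fold was 35.9 in H3.3K27M (−log10 q 330) and 61.4 in H3.3WT (−log10 q 319), the 60th and the 7th highest of their lists. The summits lay 211 and 236 bp inside the gene from its start, and the start of a neighbouring coding gene shares the peak. Sqstm1, the gene of the receptor p62, was marked in H3.3WT alone with a fold of 4.59 (−log10 q 4.01), 354 bp inside its start. Optn, the gene of the receptor optineurin, was marked in neither list, its nearest summits lying 7888 bp outside the gene in H3.3K27M (fold 3.33) and 7784 bp outside in H3.3WT (fold 7.05). The 3 receptors thus fell into 3 different classes, though Sqstm1 lost its peak when a −log10 q or a fold of at least 5 was asked for.

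The initiation complex was marked except for one of its kinases. Atg13, which codes for the subunit that mTORC1 and ULK1 phosphorylate, had folds of 15.0 in H3.3K27M (−log10 q 82.2) and 17.8 in H3.3WT (−log10 q 69.8), with summits 106 and 147 bp upstream of its annotated end. The same peak served the neighbour Harbi1. Atg101, which steadies ATG13, had folds of 8.56 and 8.40 in H3.3K27M and H3.3WT. Rb1cc1, the scaffold FIP200, had nearly equal folds, 4.83 and 4.82. Ulk2 had the lowest fold of the marked genes in H3.3K27M with 3.18, against 4.90 in H3.3WT. Ulk1 itself was marked in neither list. Its nearest summits lay outside the gene, 3911 bp away in H3.3K27M with a fold of 8.57 and 3897 bp away in H3.3WT with a fold of 4.91.

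In the lipid kinase complex the folds of Pik3r4 and Atg14 stood far apart between the lists. Pik3r4 (chromosome 9, 105642995 to 105687655), the regulatory subunit VPS15, had a fold of 6.92 in H3.3K27M (−log10 q 12.9) and 18.5 in H3.3WT (−log10 q 38.0), with summits 47 and 0 bp from the start. Atg14, the subunit that directs the complex to autophagy, had 14.9 in H3.3K27M and 6.57 in H3.3WT. The order of the lists was opposite at these subunits. Becn1, the scaffold Beclin 1, had 6.61 and 5.37. Pik3c3, the catalytic subunit VPS34, had no boundary peak but an internal one, described further on.

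Genes for lipid supply and for PI3P effectors had peaks of modest height. Atg9a, a lipid scramblase carried on vesicles, had folds of 5.69 in H3.3K27M and 8.81 in H3.3WT at an end shared with Ankzf1. The lipid transfer genes Atg2a and Atg2b had 5.89 and 4.96 in H3.3K27M, against 5.02 and 7.50 in H3.3WT. The Atg2b peak is shared with Gskip. Wipi2, a PI3P reader that recruits ATG16L1, was marked in H3.3K27M alone with 3.78, and Wipi1 and Atg9b in neither.

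Both conjugation systems were covered, while of their proteases only Atg4b had a peak at an outer gene end. Of the 11 genes 8 were marked in H3.3K27M and 7 in H3.3WT. Atg7, the shared activating enzyme, had folds of 12.8 in H3.3K27M and 16.3 in H3.3WT. Atg12, a ubiquitin-like modifier, had 13.0 (−log10 q 37.6) and 19.2 (−log10 q 49.1), with summits 44 and 4 bp outside an end it shares with Ap3s1. Its partner Atg5 had 12.2 in H3.3K27M and 8.40 in H3.3WT. Atg16l1 and Atg16l2, which complete that conjugate, had 6.04 and 5.56 in H3.3K27M, against 8.28 and 10.4 in H3.3WT. The E2-like enzyme gene Atg3 had 4.25 and 5.18 in H3.3K27M and H3.3WT, at an end shared with Slc35a5. The other E2-like enzyme gene, Atg10, was marked in H3.3K27M alone.

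Atg4b (chromosome 1, 93754905 to 93789606), the main protease that trims ATG8 proteins, had a fold of 26.6 in H3.3K27M (−log10 q 129) and 11.6 in H3.3WT (−log10 q 42.2). It was the highest of the conjugation genes in H3.3K27M, while in H3.3WT Atg12 and Atg7 were above it. Summits lay 36 and 59 bp inside the start, in a stretch shared with Thap4. None of the related proteases Atg4a, Atg4c and Atg4d had a boundary peak by the rule of outer gene ends. Atg4a and Atg4c had internal peaks of 14.4 and 14.8 fold in H3.3K27M and 13.1 and 10.6 in H3.3WT. These lay close to a start site of the promoter table, as described further on.

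Tfeb (chromosome 17, 47737037 to 47792416) had folds of 17.0 in H3.3K27M (−log10 q 67.3) and 22.5 in H3.3WT (−log10 q 61.3), with summits 73 and 95 bp upstream of its start. Its relative Tfe3 was marked in neither list and had a single internal peak in H3.3WT, of 4.66 fold, 2520 bp from its nearest end.

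All 4 mTORC1 genes of the set, which leaves out Deptor, were marked in H3.3K27M and 3 of them in H3.3WT. Rptor (chromosome 11, 119602905 to 119899591), the subunit Raptor that binds substrates, had folds of 17.7 in H3.3K27M (−log10 q 80.5) and 24.3 in H3.3WT (−log10 q 75.3), 117 and 83 bp inside its start. Akt1s1, the inhibitory subunit PRAS40, had 18.1 (−log10 q 68.3) and 13.8 (−log10 q 42.7). Those summits lay 726 and 734 bp inside the gene, at an end shared with Tbc1d17. The kinase gene Mtor had a peak at either end. At its start the folds were 5.80 in H3.3K27M and 6.46 in H3.3WT. Past its finish, at the neighbour Exosc10, they were 5.77 and 7.59. Mlst8, a subunit of both mTOR complexes, was marked in H3.3K27M alone.

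The Rag GTPase genes had low peaks, and one subunit of GATOR1, which holds them back, had one of the highest. Rraga and Rragc had folds of 5.51 and 6.40 in H3.3K27M, against 4.20 and 3.86 in H3.3WT. Rheb, the direct activator of mTORC1, had 7.35 in H3.3K27M and 10.8 in H3.3WT. In the TSC complex, which turns Rheb off, Tsc2 had 8.73 and 8.95 at a start shared with Nthl1, and Tsc1 was marked in H3.3WT alone. Nprl2 (chromosome 9, 107542177 to 107545706), a GATOR1 subunit, had 37.8 in H3.3K27M (−log10 q 242) and 36.6 in H3.3WT (−log10 q 205). The H3.3K27M and H3.3WT summits lay 256 and 260 bp outside the gene, towards Cyb561d2. The other GATOR1 genes, Depdc5 and Nprl3, were marked in neither. The nearest summit to Nprl3 was 265358 bp away in H3.3K27M and 265348 bp away in H3.3WT.

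**Figure D3:**
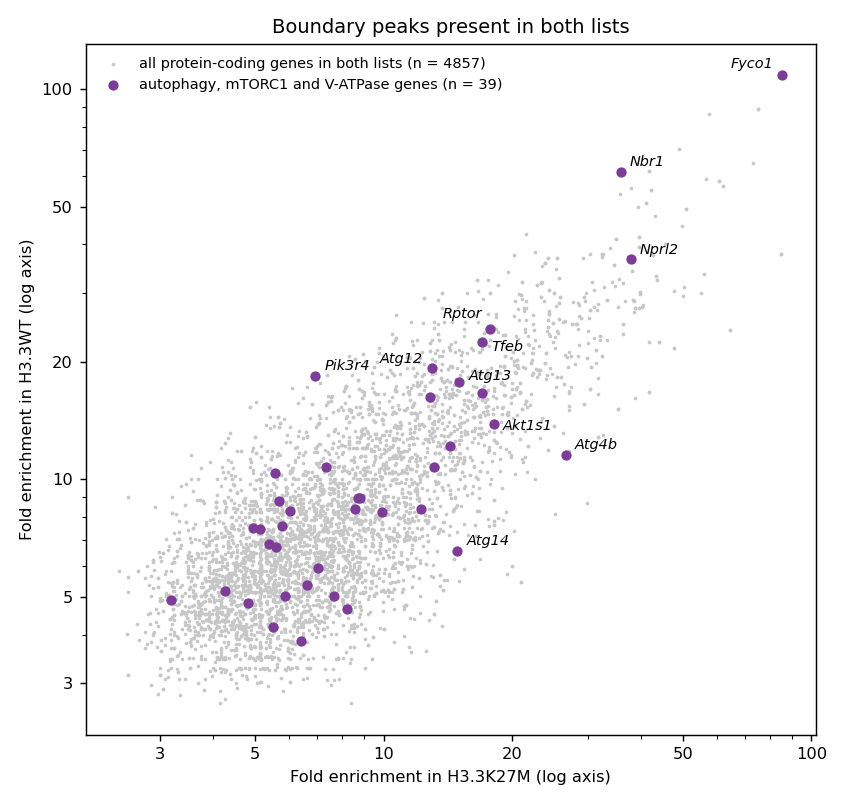
Fold enrichment in H3.3K27M (horizontal log axis) against that in H3.3WT (vertical log axis) for the 39 autophagy, mTORC1 and V-ATPase genes marked in both lists (purple) and all 4857 genes marked in both (grey). Atg4b and Atg14 lie on the H3.3K27M side of the cloud and Pik3r4 on the H3.3WT side.

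The V-ATPase genes are given by where their subunits are known to be used. Of 7 genes whose subunits are known from restricted tissues or cells, such as kidney, bone, testis or neurons, the neuronal Atp6v1g2 was the one marked, in both lists. Its summits lay 930 and 927 bp inside the gene, at an end shared with Nfkbil1, with folds of 8.82 in H3.3K27M and 8.95 in H3.3WT. That count of 1 of 7 is too small to set apart from the 28.6% and 24.8% of all genes. Of the 15 other subunit genes 13 were marked in H3.3K27M and 10 in H3.3WT, while Atp6v0e2 and Atp6v1b2 were in neither list. Atp6v1fnb, which matches the symbol pattern but is a neighbour of Atp6v1f and no subunit, was unmarked.

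In the membrane part Atp6v0b, a subunit of the proton-carrying ring, had the highest folds of the V-ATPase genes, 17.0 in H3.3K27M and 16.6 in H3.3WT. Atp6v0c, the main ring subunit, had a peak at either end. At its finish, shared with Amdhd2, the folds were 14.3 in H3.3K27M and 12.2 in H3.3WT, and at its start 9.05 and 6.47. The stalk gene Atp6v0d1 had 5.60 and 6.72 at an end shared with Agrp, and Atp6v0e had 5.41 and 6.83. The a-subunit genes Atp6v0a1 and Atp6v0a2 were marked in H3.3K27M alone. In the cytosolic part Atp6v1h had 13.1 in H3.3K27M and 10.8 in H3.3WT, and Atp6v1c1 had 9.90 and 8.26. Atp6v1f had 8.20 and 4.67, Atp6v1e1 had 7.65 and 5.02, and Atp6v1d, at an end shared with Eif2s1, had 7.04 and 5.92. The H3.3K27M fold was thus the higher one at these 5 genes. The H3.3WT fold was the higher one at Atp6v1a, the catalytic subunit, with 5.14 and 7.45 at an end shared with Naa50. It was also slightly higher at Atp6v1g2, given above, with 8.82 and 8.95.

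Of the 9 genes marked in 1 list, Epg5 and Tsc1 had the highest folds and −log10 q. Epg5, the tether that guides autophagosomes to lysosomes, had a fold of 11.3 and a −log10 q of 24.6 in H3.3K27M, 41 bp inside the gene. The nearest H3.3WT summit lay 164471 bp outside the gene. Of 1794 genes with at least that −log10 q in H3.3K27M, 10 (0.557%) were marked in H3.3K27M alone. Tsc1 had a fold of 8.07 and a −log10 q of 20.4 in H3.3WT, 187 bp inside the gene. Its nearest H3.3K27M summit lay 8854 bp outside the gene, with a fold of 9.05. Of 1819 genes with at least that −log10 q in H3.3WT, 3 (0.165%) were marked in H3.3WT alone.

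Atp6v1g1 lay between these and the rest. It had a fold of 7.19 (−log10 q 13.8) in H3.3K27M, 202 bp inside the gene, and 3.28% of the 2959 genes with at least that −log10 q were in that list alone. The other 6 lay lower. Atp6v0a1 had 5.37 (−log10 q 8.98), 82 bp outside the gene. Mlst8 had 4.53 (−log10 q 5.12) at 1 bp, and Atp6v0a2 had 4.41 (−log10 q 5.47) at 66 bp inside its end. Atg10 had 4.09 (−log10 q 3.57), 990 bp inside the gene. Wipi2 had 3.78 (−log10 q 6.90), 10 bp inside its annotated end. No other coding gene shared these peaks. For the 5 of them in H3.3K27M the share marked in H3.3K27M alone among genes with at least their −log10 q ran from 6.94% at Atp6v0a1 to 18.3% at Atg10, and at Sqstm1 the share in H3.3WT alone was 7.18%. The lists end at −log10 q values of 1.31 in H3.3K27M and 1.33 in H3.3WT, so a site below that level in one library is missing from its list.

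The 20 genes marked in neither list included some with high peaks nearby. Atg4c had an internal peak with folds of 14.8 in H3.3K27M and 10.6 in H3.3WT, 4926 and 4859 bp from its nearest end but 62 and 84 bp from a start site of the promoter table. Atg4a had one with 14.4 and 13.1, 105 and 85 bp from such a start site. Both genes therefore had a peak at a start that is not an outer end of the gene. Pik3c3 had an internal peak with 14.4 in H3.3K27M and 14.9 in H3.3WT, 7165 and 7180 bp from its nearest end. In all, 3 of the unmarked genes had an internal peak in H3.3K27M and 4 in H3.3WT.

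The 1 kb limit separated few genes. The farthest peaks inside it were those of Atg10 at 990 bp and of Atp6v1g2 at 930 bp in H3.3K27M and 927 bp in H3.3WT. The nearest outside it were those of Atg9b, 2513 bp away in H3.3K27M with a fold of 17.5 and 2500 bp away in H3.3WT with 17.0. For Atp6v1b2, the widely used B subunit, the nearest summits lay 7995 bp outside the gene in H3.3K27M (fold 12.3) and 7990 bp outside in H3.3WT (fold 9.12). For the 6 unmarked V-ATPase genes of restricted tissues the nearest summits lay 15460 to 559439 bp away in H3.3K27M and 5955 to 674320 bp away in H3.3WT.

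Where both lists marked a gene they marked the same place. The peaks of the 39 genes overlapped between the lists in every case. At the 38 genes whose best peak was the same one, all but Mtor, the summits of the lists were a median of 29 bp apart, from 0 to 256 bp. Over all 4857 genes in both lists the best peaks overlapped at 4792, with a median of 40 bp between summits. The overlap was thus not particular to the set. Median peak widths were 605.5 bp in H3.3K27M and 599 bp in H3.3WT. The strand was taken from the promoter table, which gave it for 37 marked genes in H3.3K27M and 35 in H3.3WT. The peak stood at the start end of 36 of them (97.3%) in H3.3K27M and 33 (94.3%) in H3.3WT, against 95.3% and 95.5% over all such genes. From the annotated start end the median distance was 101.5 bp in H3.3K27M and 133 bp in H3.3WT, against 99 and 89 bp over all genes. Within 300 bp of it lay 88.9% of these summits in H3.3K27M, against 83.05% over all genes, and 78.8% in H3.3WT, against 83.99%. In H3.3WT the set's median distance was thus the longer one. The peak also lay at another coding gene's end for 16 of 46 genes in H3.3K27M (34.8%, all genes 34.7%) and 17 of 41 in H3.3WT (41.5%, all genes 36.8%). For shared ends the peak cannot be assigned to one gene.

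**Figure D4:**
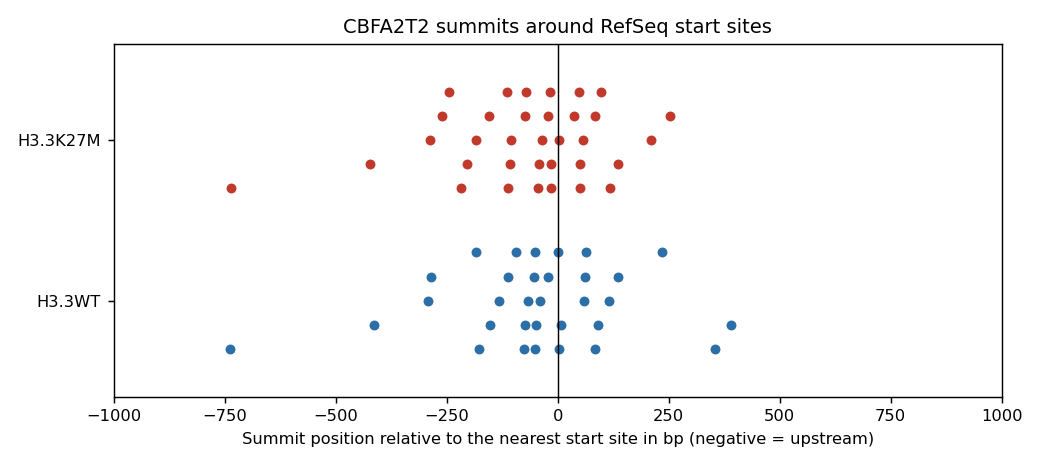
Position of each summit (horizontal axis, bp from the nearest start site of the RefSeq promoter table, negative upstream) for marked genes with a table start site, in H3.3K27M (upper, red) and H3.3WT (lower, blue), with points spread vertically for legibility. Of 37 summits in H3.3K27M 34 lay within 1 kb and are drawn, from -735 to 252 bp, and of 35 in H3.3WT 32 are drawn, from -738 to 391 bp. Not drawn are those of Atg7 and Atp6v0c in both lists, Atp6v0a1 in H3.3K27M and Mtor in H3.3WT. Atp6v0c and Mtor also had a peak at their start, and the Atg7 summits lay 12 and 9 bp from its annotated start end.

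Promoter letters were searched in the windows of 53 genes of the set, 37 marked in either list and 16 in neither, and in all 15752 windows. The palindrome CACGTG, the E-box, was in 24.3% of the marked genes' windows (9 of 37) and in none of the 16 others. Over all genes it was in 12.1% of windows of marked genes and 5.88% of the rest, and in 8.01% of all windows. With 16 windows, the absence from the unmarked genes of the set cannot be set apart from that 5.88%. The 9 genes were Atp6v0b, Atp6v0d1, Atp6v0e, Atp6v1a, Rragc, Rheb, Atg3, Atg5 and Atg14. In 5 of them, Atp6v0b, Atp6v0d1, Rheb, Atg3 and Atg14, the letters extended to GTCACGTG, the core of the CLEAR element that TFEB and TFE3 recognise. That longer form, which contains the E-box, was in 13.5% of the marked genes' windows, 5.42% of the windows of all marked genes and 2.90% of all windows. Of these 5, Atp6v0b had the highest fold in both lists and Atg3 the lowest. Over all genes in both lists the median fold differed little with the E-box. It was 7.59 in H3.3K27M and 7.37 in H3.3WT with it, and 7.20 and 7.37 without it. For the longer form it was 7.59 and 7.72 with it, and 7.23 and 7.37 without it.

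The ETS letters CCGGAA were in 43.2% of the marked genes' windows (16 of 37) and in 6.25% of the others (1 of 16, Atp6v1c2). Over all genes the shares were 37.1% with a peak and 9.83% without, and 19.2% of all windows held the letters. ACTACAA, part of the GFY promoter motif, which overlaps the open core TACANNTCC, was at Fyco1, Rptor, Tsc2 and Atp6v0b. That was 10.8% of the marked genes' windows, against 6.77% of all marked genes' windows and 3.85% of all windows. The open core itself was in 8.11% of the marked genes' windows, 10.04% of all marked genes' windows and 5.22% of all windows. None of the 16 windows of unmarked genes held either form. So few windows cannot be set apart from the 2.32% (ACTACAA) and 2.71% (open core) of all unmarked genes' windows.

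The remaining letters are given for marked and unmarked genes of the set, whose 37 and 16 windows are few. The GC box GGGCGG was in 56.8% of the marked genes' windows and 56.3% of the others, where over all genes it was in 67.4% of windows with a peak and 35.97% without. CCAAT was in 21.6% and 31.3% (all genes 40.6% and 38.8%). The NRF1 core GCGCATGC was in 10.8% and 6.25% (all genes 6.84% and 2.11%), and the YY1 letters AAGATGGC in 5.41% and 6.25% (all genes 6.73% and 1.47%). The CRE letters TGACGTCA were in 5.41% and in none (all genes 4.61% and 1.22%), and TCTCGCGA, of the ZBTB33 type, in 5.41% and 6.25% (all genes 3.40% and 0.512%). The share of all windows, with or without a peak, was 46.8% for the GC box, 39.4% for CCAAT, 3.73% for NRF1, 3.28% for YY1, 2.38% for CRE and 1.50% for the ZBTB33 type. The E-boxes known for the E-protein partners of MTG proteins were not more frequent at marked than at unmarked genes of the set. CAGCTG was in 8.11% of their windows and 12.5% of the others (all genes 11.95% and 16.4%, all windows 14.9%), and CACCTG in 24.3% and 37.5% (all genes 14.5% and 21.7%, all windows 19.2%).

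CpG content moved with the peaks. Windows of marked genes had a median of 21 CpG and those of unmarked genes 13.5, where over all genes the medians were 23 and 6. Of the 16 unmarked windows 7 had at least 18 CpG, the lower quartile of the marked ones, among them Depdc5 with 30, Ulk1 with 26 and Wipi1 with 25. Several motifs, the E-box and the ETS letters among them, contain a CpG, and the part of CpG content in their shares was not tested. Motif matches describe letters, not sites of a factor.

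**Figure D5:**
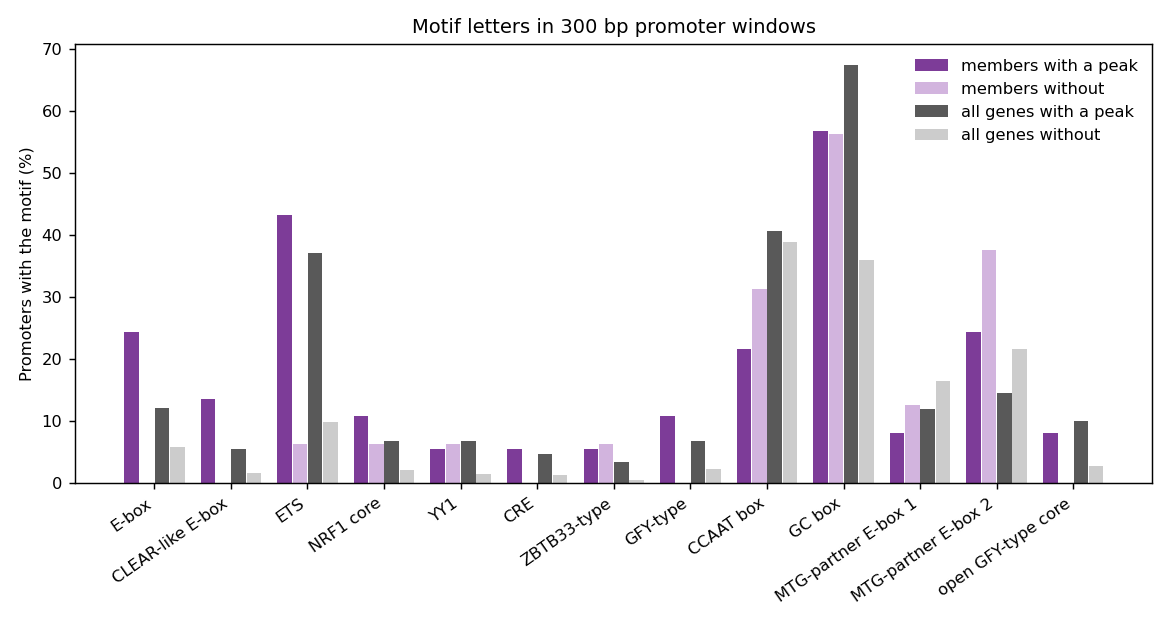
Share of 300 bp promoter windows with each motif (vertical axis, percent) among autophagy, mTORC1 and V-ATPase genes with a boundary peak in either list (dark purple, 37 windows), those without (light purple, 16), all genes with a peak (dark grey, 5406) and all without (light grey, 10346). The E-box stands at 24.3% in the first group and at 0 in the second, and the ETS letters at 43.2% and 6.25%. The second group is small, and over all genes without a peak the E-box was in 5.88% of windows.

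Genes of the surrounding pathway, also chosen with earlier results of these data known, were counted by the same rule. Of 85 further genes in 15 lists, 55 were marked in H3.3K27M, 49 in H3.3WT and 45 in both, where 28.6%, 24.8% and 22.2% of all genes were. Single lists are short, and some, such as mTORC2 and the further V-ATPase genes, lie near these shares. GATOR2, which counters GATOR1, was marked in all 5 genes in either list, and KICSTOR, which tethers GATOR1 to lysosomes, in all 3. Of the 5 Ragulator genes, which anchor the Rag GTPases, 4 were marked in H3.3K27M and 5 in H3.3WT. Lamtor2 had the highest of these peaks, 35.3 in H3.3K27M and 15.1 in H3.3WT, and Lamtor4 was marked in H3.3WT alone with 4.91. Of the folliculin genes Flcn (5.18) and Fnip1 (4.65) were marked in H3.3K27M alone, and none of the 3 in H3.3WT. The nutrient sensors were marked in 3 of 5 genes in H3.3K27M and 2 in H3.3WT, mTORC2 genes in 2 of 5 in each list and AMPK genes in 4 and 3 of 7.

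Among autophagy genes beyond the set, 4 of 5 ATG8 genes were marked in H3.3K27M and 3 in H3.3WT, led by Gabarap with 32.4 and 37.9. Further initiation genes were marked in 5 of 6 and 6 of 6. Wdr45, another PI3P reader, had 13.7 in H3.3K27M and 30.0 in H3.3WT. Of 7 further receptor genes 4 were marked in H3.3K27M and 3 in H3.3WT, with Calcoco1 at 35.6 and 53.8. The fusion genes were marked in 8 and 7 of 11. Of 12 lysosomal genes 7 were marked in H3.3K27M and 6 in H3.3WT, with Lamp1 at 23.5 and 35.3. Of 7 further V-ATPase genes, Tcirg1 for a pump subunit and the rest for accessory proteins, Atp6ap1 and Dmxl1 were marked, 2 in each list. Mitf was marked in both lists and its relative Tfec in neither, and of the mTORC1 substrate genes Rps6kb1 was marked in both and Eif4ebp1 in neither.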

How the data were processed

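Peak positions, summits and caller values were used as the authors deposited them, 1 list per genotype. The submitters' processing notes name Trim Galore, MACS2 and mm10, without versions or settings. Which aligner was used and how duplicates were treated is not given in the sources used here. The deposited peak names show 1 ChIP against an input per list, so nothing was pooled. The deposited score column was not used. The deposited fold enrichment (a ratio) and the deposited −log10 p and −log10 q rank peaks within a list only. Read counts do not accompany the peaks, so depth is unknown, no interval is given, and a deeper library or a better precipitation would yield more peaks.

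Gene spans came from RefSeq on GRCm38.p6, the assembly of mm10, without strand. Strand, start sites and promoters came from the RefSeq promoter table, which matched 56 of the 68 genes. A window was used where its start lay within 1 kb of the annotated start end, which held for 53. The table did not match Atp6v1h, Rb1cc1, Atg16l1, Atp6v0d2, Atp6v1g1, Atp6v0a2, Atp6v1b2, Becn1, Atp6v1c1, Pik3c3, Atg12 and Epg5. Motifs were searched on both strands with overlaps. Every marked gene is named, and the 10 with the highest fold in either list and those in 1 list alone are given in full. The genes, lists and motifs were chosen with earlier results of these data known. The assignment of peaks to genes was tested on simulated data. Python 3.11.15, pandas 2.3.3, NumPy 2.4.6 and matplotlib 3.10.9 were used.

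Alternatives were a −log10 q or a fold of at least 5, lists of equal length (6920 peaks), limits of 500 bp and 3 kb around a gene end, the whole peak in place of its summit, start sites alone, and overlap of at least 50% of either peak.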

Additional observations from a re-analysis of the deposited data

How the results depend on the processing

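The count of genes marked in H3.3K27M alone was 7 and became 3 with start sites of the promoter table alone, where 56 genes had a row and Atp6v1g1, Atp6v0a2 and Epg5 did not, while Atp6v0a1 had its summit 1058 bp from the table's start site. Over all 7 alternatives the genes marked numbered 37 to 48 in H3.3K27M, 35 to 44 in H3.3WT and 32 to 41 in both. The 37 came with start sites alone and are of 56 genes, where 30.9% of all genes with a row were marked. Over all genes the shares ran from 19.4% to 32.3% in H3.3K27M, 19.1% to 28.2% in H3.3WT and 15.2% to 25.2% in both. Marked in H3.3K27M alone were 3 to 7 genes (all genes 4.22% to 7.04%) and in H3.3WT alone 2 to 3 (all genes 2.20% to 3.86%). All 39 overlaps remained with at least 50% of either peak. Which genes stood in a single list changed with the thresholds. With a −log10 q of at least 5, Rragc was left in H3.3K27M alone and Ulk2 in H3.3WT alone, and Sqstm1 and Atg10 lost their peaks. With a fold of at least 5, Rraga, Rragc and Atp6v1f were left in H3.3K27M alone and Atg2b and Atg3 in H3.3WT alone, and 7 genes lost their peaks. With lists of equal length Ulk2 was left in H3.3WT alone and Atg10 lost its peak, and within 500 bp Akt1s1, Atg10 and Atp6v1g2 lost theirs. Epg5 and Tsc1 stayed in a single list under every alternative that gave them a value. A window of 3 kb added Atg9b, Tfe3 and Atg4a, and start sites alone added Atg4c and Atg4a. No paired analysis was possible because each genotype had 1 library and no test was made. With 1 library per genotype and unknown depth, a gene missing from a list is not shown to lack a peak.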
